A study of Mus musculus with 30 samples.

Results

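Solute carriers are membrane proteins that move sugars, amino acids, ions, metals, vitamins, nucleosides, bile acids and metabolites across the plasma membrane and the membranes of organelles. The genes described here are the 213 mouse genes whose symbol starts with Slc and a number and whose mean was at least 5 CPM (reads of the gene scaled to the size of the library) over the 6 libraries of a deposited table, in at least 1 of 7 tables that together list 13456 genes. Slc26a3, Slc51a, Slc51b and Slc37a2 were left out by name. The rule was met in all 7 tables by 133 of the 213 genes. They were chosen by their measured level, the mean CPM of each table, so levels are given as a description and no test is made of them. In the colon table, with 193 members, the lowest mean inside the rule was 5.45 CPM (Slc23a3) and the highest outside it was 4.98 CPM (Slc35e4). Over the 7 tables the lowest means inside were between 5.04 and 5.45 CPM and the highest outside between 4.702 and 4.985 CPM. The 213 genes fall into 44 carrier families, of which the largest are SLC25 with 35 genes, SLC35 with 22, SLC39 with 13 and SLC7 with 11. The symbols of 5 of them name something other than a carrier: the scaffold proteins Slc9a3r1 and Slc9a3r2, the genes Slc4a1ap and Slc7a6os, and the pseudogene Slc2a4rg-ps.

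The study sequenced mRNA from 30 mouse libraries in 10 groups of 3. Colon epithelium came from Smad4ΔLrig1 mice, labelled as the knockout, and from Smad4+ control mice, both on the C57BL/6J background. Cells labelled as IMCfl/fl Smad4+ colonocytes, a line whose name marks no Smad4 loss, received TNFa with TGFb and BMP2, TGFb and BMP2, TNFa, or no factor as the control, at doses that the labels leave out. Colonoids are epithelial organoids grown from mouse colon, and those of lines named L42, L43 and L46 received 3 ng/mL TGFB1 with 10 ng/mL BMP2 and 100 ng/mL TNF, the same TGFB1 and BMP2 without TNF, TNF alone at 100 ng/mL, or vehicle. TGFB1 and BMP2 are ligands whose receptors phosphorylate SMAD proteins that act with SMAD4 in the nucleus, while TNF, a cytokine of inflammation, signals mainly by other routes. The name Smad4ΔLrig1 ties the deletion to Lrig1, a gene expressed in epithelial stem cells, so epithelium of such mice is a model of deletion in that lineage. The age of the mice, whether animals were pooled and the interval after deletion are not stated in the labels. The colonocyte libraries carry no label that ties them to separate cultures, so the spread behind their p-values may be technical.

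In the colon, transport across the epithelium is divided among cell types and along the crypt axis. Absorptive cells near the surface take up short chain fatty acids, sodium and chloride, secretory cells load chloride through a basolateral sodium, potassium and chloride cotransporter, and the SLC25 carriers of the mitochondrial inner membrane exchange ATP, phosphate and metabolites with the cytosol. Amino acid carriers such as the heterodimers of Slc3a2 with Slc7a5 or Slc7a11 serve growth and glutathione synthesis, and the SLC39 and SLC30 families move zinc, manganese and iron into and out of the cytosol.

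The authors' CPM values corresponded to 23200000 to 28600000 listed reads per colon library, 21600000 to 42900000 per library of cells labelled colonocytes and 42200000 to 61700000 per colonoid library. Smad4 itself had 47.8, 59.2 and 46.1 CPM in knockout epithelium, against 132, 148 and 152 CPM in control epithelium, so the labels and the level of the targeted gene match and a remainder was still read. The libraries labelled as colonocytes went against that label for most markers: Epcam, Vil1 and Cdx2 were not listed in their 3 tables, Cdh1 reached at most 1.94 CPM where it was listed, and no goblet cell or enteroendocrine marker was listed. The other epithelial markers listed were Krt19 at 18.7 to 40.3 CPM, Krt18 at 3.756 to 6.3998 CPM and Krt8 at 0.77 to 4.70 CPM, and of 12 absorptive cell markers Emp1 stood at 476 to 656 CPM and Ms4a10 at 1.54 to 3.30 CPM. The mesenchymal genes Vim and Col1a1 stood at 2890 to 3217 CPM and 1959 to 3084 CPM in them. They are therefore called the cells labelled colonocytes, and no result from them is read as one of colon epithelium. In colonoids given TGFB1 and BMP2, the line L46 stood apart, as described with those results. The SLC values come from whole tissue fractions, cultures or organoids, in which fewer cells of a type and less RNA per cell cannot be told apart.

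The promoters of 5 members around which the results turn were read from RefSeq (GRCm38.p6), as 250 bases before to 50 after the annotated start, in the direction of transcription. They are Slc16a3, which was higher with TGFB1 and BMP2 in both culture systems, Slc25a23, which was lower with them in both, Slc46a1 and Slc5a1, among the members that moved furthest in colonoids, and Slc7a11, the member with the largest rise in knockout epithelium. Capitals mark GGCGCC, a GC-rich element bound by SMAD proteins, which reads the same on both strands and does not overlap the other motifs searched.
Slc16a3, chr11:120948817-120949116, + strand: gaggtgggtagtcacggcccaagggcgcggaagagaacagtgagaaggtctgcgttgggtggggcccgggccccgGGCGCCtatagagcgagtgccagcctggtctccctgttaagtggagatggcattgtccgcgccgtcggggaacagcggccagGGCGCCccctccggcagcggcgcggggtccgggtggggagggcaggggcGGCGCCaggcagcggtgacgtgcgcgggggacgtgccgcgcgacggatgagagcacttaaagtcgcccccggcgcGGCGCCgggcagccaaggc
Slc25a23, chr17:57059814-57060113, - strand: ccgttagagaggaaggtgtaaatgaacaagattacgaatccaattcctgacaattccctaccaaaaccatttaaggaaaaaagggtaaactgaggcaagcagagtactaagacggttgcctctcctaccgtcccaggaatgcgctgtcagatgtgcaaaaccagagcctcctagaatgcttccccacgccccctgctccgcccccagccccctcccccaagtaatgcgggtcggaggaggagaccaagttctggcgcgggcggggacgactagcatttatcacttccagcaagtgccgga
Slc46a1, chr11:78465451-78465750, + strand: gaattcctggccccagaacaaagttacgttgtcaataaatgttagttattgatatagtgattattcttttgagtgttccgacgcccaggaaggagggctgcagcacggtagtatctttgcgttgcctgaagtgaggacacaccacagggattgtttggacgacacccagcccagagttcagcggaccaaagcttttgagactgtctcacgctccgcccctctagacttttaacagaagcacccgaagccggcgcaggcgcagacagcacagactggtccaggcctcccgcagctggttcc
Slc5a1, chr5:33103969-33104268, + strand: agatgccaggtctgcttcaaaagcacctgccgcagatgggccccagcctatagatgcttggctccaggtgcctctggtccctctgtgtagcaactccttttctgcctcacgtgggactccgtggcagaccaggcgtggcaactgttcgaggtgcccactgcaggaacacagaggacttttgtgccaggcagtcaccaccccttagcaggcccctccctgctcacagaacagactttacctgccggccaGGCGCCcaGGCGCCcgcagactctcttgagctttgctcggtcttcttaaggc
Slc7a11, chr3:50443564-50443863, - strand: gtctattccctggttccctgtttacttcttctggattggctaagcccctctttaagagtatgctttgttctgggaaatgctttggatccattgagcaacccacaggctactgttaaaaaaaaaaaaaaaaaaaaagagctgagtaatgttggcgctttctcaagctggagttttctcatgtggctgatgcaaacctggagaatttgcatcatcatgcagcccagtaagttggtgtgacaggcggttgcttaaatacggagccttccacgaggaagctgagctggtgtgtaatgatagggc
In the Slc16a3 window GGCGCC starts at bases -175, -93, -44 and 32 counted from the annotated start, and in the Slc5a1 window at bases -2 and 7. The letters GGCGCC were not in the windows shown for Slc25a23, Slc46a1 and Slc7a11. The carriers Slc6a8, Slc7a2 and Slc6a6, which also recur in the results, are named only. Promoters were matched for 160 of the 213 members, with 211 windows, and GGCGCC was in 18.01% of these windows, against 11.9% of all 32851 windows in the table. The palindrome GTCTAGAC was in none of the members' windows and in 0.213% of all windows. The AP-1 letters TGACTCA were in 2.84% of the members' windows and 5.20% of all, the antioxidant response core TGACNNNGC in 20.4% and 12.4%, and the hypoxia response core ACGTG in 28.4% and 19.6%. Both strands were searched. A match is a description of letters, not of binding.

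The SLC repertoire differed in composition between the 3 systems. By the rule, 138 members stood in tables of all 3 systems, 37 in colon epithelium and colonoids only, 14 in colon epithelium only, 8 in the cells labelled colonocytes and colonoids only, 7 in the cells labelled colonocytes only, 5 in colonoids only and 4 in colon epithelium and the cells labelled colonocytes only. Among the 37 were the amino acid carrier Slc6a14 at a mean of 581 CPM, the sodium-coupled monocarboxylate carrier Slc5a8 at 498 CPM, the choline-like transporter Slc44a4 at 433 CPM, the zinc importer Slc39a4 at 298 CPM and the sodium-glucose cotransporter Slc5a1 at 218 CPM in the table where each was highest. The dicarboxylate carrier Slc13a2, at 136 CPM, led those of colon epithelium only, and the potassium-chloride cotransporter Slc12a4, at 291 CPM, led those of the cells labelled colonocytes only.

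Per kilobase of exon, the mitochondrial ADP/ATP carrier Slc25a5 was the highest member in control epithelium, at 1041 ± 140 CPM per kb (SD, n = 3), followed by Slc6a14 at 173 ± 24.6, the mitochondrial phosphate carrier Slc25a3 at 162 ± 11.9 and Slc44a4 at 150 ± 10.0 CPM per kb. The last 3 lay within each other's spread. Vehicle colonoids also had Slc25a5 highest, at 657 ± 83.7 CPM per kb, then the mitochondrial citrate carrier Slc25a1 at 124 ± 12.1, the iron importer Slc11a2 at 108 ± 59.7, and the chloride-loading cotransporter Slc12a2 at 103 ± 5.40 CPM per kb. Among these 4 members Slc11a2 varied most between lines and ranged between 58.9 and 174 CPM per kb. In untreated cells labelled colonocytes the scaffold gene Slc9a3r1 (222 ± 41.0) and the ADP/ATP carrier Slc25a4 (216 ± 2.67 CPM per kb) led and overlapped, above Slc25a5 at 140 ± 9.81 CPM per kb. The SLC25 family took 22.7% to 24.6% of the summed CPM of all members in knockout epithelium, against 25.4% to 27.2% in control epithelium.

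Loss of Smad4 was the first comparison. It asked which genes differ in epithelium lacking much of its Smad4. Of 193 members tested, 26 rose and 47 fell in knockout epithelium (limma on log2(CPM + 1), Benjamini-Hochberg adjusted p under 0.05), together 37.8%, against 39.7% of all 11607 genes tested, of which 19.8% were higher and 19.9% lower. The share of members called was thus near the background. Members split toward lower levels, with a median log2 difference of -0.08, against 0.00 for all genes. The groups did not overlap for 93 members (48.2%, against 50.2% of all genes tested), 70 of them called.

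Carriers for monocarboxylates, bile acids and fatty acids were among those lowest in the knockout relative to the control. Slc16a9, on chromosome 10 (bases 70245100 to 70285968, + strand, GRCm38), encodes a plasma membrane transporter of the monocarboxylate family that is known from human cells to carry carnitine. It had 5.36, 3.92 and 12.6 CPM in knockout epithelium, against 39.4, 31.2 and 34.4 CPM in control epithelium (log2 difference -2.25, SE 0.30, adjusted p = 0.000604). All 3 knockout libraries lay below all 3 control libraries, and the 3rd knockout library was the least low. Slc10a2, the apical sodium-bile acid cotransporter, had 2.64, 2.50 and 5.14 CPM in knockout epithelium, against 13.6, 11.2 and 11.05 CPM in control epithelium (log2 difference -1.59, SE 0.21, adjusted p = 0.000604), again with the highest of the knockout values in the 3rd library. Slc27a4, a long chain fatty acid transport protein, had 53.8, 40.9 and 53.3 CPM in knockout epithelium, against 124, 128 and 117 CPM in control epithelium (log2 difference -1.31, SE 0.12, adjusted p = 0.000133). The groups were far apart and tight. In the SLC16 family as a whole, 4 of 6 members fell and 1 rose, against 19.9% lower and 19.8% higher over all genes. The other falls were those of Slc16a5 (-0.72), Slc16a10, an aromatic amino acid transporter (-0.53), and Slc16a13 (-0.37). The call of Slc16a13 was lost in every fit that left out 1 library, and that of Slc16a10 in 1 of 6. The 1 rise was Slc16a6, at 19.1, 21.1 and 26.2 CPM in knockout epithelium, against 13.0, 8.98 and 9.62 CPM in control epithelium (log2 difference 1.01, SE 0.17, adjusted p = 0.0016), a value that is uncertain because 21.5% of its exon bases are shared with Amz2 on the other strand. Slc16a1, the main importer of butyrate and lactate, had 249.0, 286 and 382 CPM in knockout epithelium, against 491, 369.7 and 383 CPM in control epithelium (adjusted p = 0.0511), and Slc5a8, which takes up the same anions with sodium, had 363, 538 and 472 CPM, against 521, 524 and 569 CPM (adjusted p = 0.175), so both missed the threshold.

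Of the 33 mitochondrial carriers of the SLC25 family 10 fell and 3 rose, while 19.9% of all genes were lower and 19.8% higher. Slc25a34, whose substrate is not established, had 14.2, 11.8 and 12.8 CPM in knockout epithelium, against 34.5, 48.4 and 39.9 CPM in control epithelium (log2 difference -1.58, SE 0.14, adjusted p = 0.00013). The phosphate carrier Slc25a3 had 582, 659 and 705 CPM in knockout epithelium, against 822, 942 and 929.9 CPM in control epithelium (log2 difference -0.47, SE 0.11, adjusted p = 0.00816). Its groups did not overlap, although the fold was small. The ADP/ATP carrier Slc25a4 fell too (log2 difference -0.79, SE 0.19, adjusted p = 0.00816), while the far more abundant Slc25a5 had 1198, 1381 and 1543 CPM in knockout epithelium, against 1448, 1817 and 1873 CPM in control epithelium, with overlapping groups (adjusted p = 0.0957). The dicarboxylate carrier Slc25a10 (-0.89), the oxoglutarate carrier Slc25a11 (-0.57) and the glycine carrier Slc25a38 (-0.56), which serves heme synthesis, also fell. Slc8b1, the mitochondrial sodium-calcium exchanger of another family, had 22.6, 17.0 and 13.5 CPM in knockout epithelium, against 32.3, 37.9 and 31.2 CPM in control epithelium (log2 difference -0.92, SE 0.17, adjusted p = 0.00292). Among the 3 SLC25 rises was Slc25a37, mitoferrin, which brings iron into mitochondria, at 74.9, 73.3 and 62.5 CPM in knockout epithelium, against 41.6, 41.1 and 41.4 CPM in control epithelium (log2 difference 0.75, SE 0.11, adjusted p = 0.000754).

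Metal carriers moved in both directions. The iron exporter Slc40a1, ferroportin, had 211, 268 and 259 CPM in knockout epithelium, against 70.6, 147 and 155 CPM in control epithelium (log2 difference 1.06, SE 0.25, adjusted p = 0.00873). The 1st control library was low beside the other controls. The iron importer Slc11a2 showed no such difference, with 40.7, 38.4 and 35.6 CPM in knockout epithelium, against 37.9, 36.8 and 35.3 CPM in control epithelium (adjusted p = 0.693). Slc30a10, a manganese exporter, fell to 14.4, 11.9 and 11.1 CPM in knockout epithelium, against 40.5, 27.5 and 30.3 CPM in control epithelium (log2 difference -1.32, SE 0.16, adjusted p = 0.000429). Of 11 zinc importers of the SLC39 family, 2 rose and 4 fell, against 19.8% higher and 19.9% lower over all genes. The basolateral zinc importer Slc39a5 had 60.9, 38.2 and 51.2 CPM in knockout epithelium, against 97.4, 104 and 87.0 CPM in control epithelium (log2 difference -0.95, SE 0.16, adjusted p = 0.0016), and the apical importer Slc39a4 fell by less (log2 difference -0.35, SE 0.099, adjusted p = 0.0193), a call lost in 2 of the 6 fits that left out 1 library (highest adjusted p = 0.103). Slc39a10, another plasma membrane zinc importer, rose to 21.9, 25.7 and 35.2 CPM in knockout epithelium, against 15.4, 14.8 and 14.2 CPM in control epithelium (log2 difference 0.83, SE 0.16, adjusted p = 0.00374). The zinc exporter Slc30a1, which cells make in response to zinc, fell (log2 difference -0.49, SE 0.12, adjusted p = 0.0107).

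Amino acid carriers included the largest rise among members. Slc7a11, on chromosome 3 (bases 49892526 to 50443614, - strand, GRCm38), exports glutamate in exchange for cystine and so feeds glutathione synthesis. It had 11.6, 11.1 and 15.3 CPM in knockout epithelium, against 3.497, 1.33 and 1.77 CPM in control epithelium (log2 difference 2.14, SE 0.24, adjusted p = 0.000258). Every knockout library was more than 3 times the highest control library, at levels that remained low. Its mean was at least 5 CPM in the knockout group only, and those of Slc10a2, Slc2a5 and Slc35e3 in the control group only, so these 4 met the rule through the group in which they are high. Its partner Slc3a2 had 58.7, 55.0 and 57.8 CPM in knockout epithelium, against 57.8, 54.9 and 50.2 CPM in control epithelium (adjusted p = 0.584). The glutamine carrier Slc38a1 rose to 92.0, 94.7 and 81.1 CPM in knockout epithelium, against 60.6, 56.6 and 57.9 CPM in control epithelium (log2 difference 0.60, SE 0.10, adjusted p = 0.00161). Slc36a1, a proton-coupled amino acid carrier of lysosomes, had 116, 132 and 98.2 CPM in knockout epithelium, against 63.2, 69.8 and 61.8 CPM in control epithelium (log2 difference 0.81, SE 0.12, adjusted p = 0.000935). The taurine carrier Slc6a6 rose by less (log2 difference 0.39, SE 0.094, adjusted p = 0.00881). Slc6a14, the most abundant amino acid carrier of the colon per length, had 428, 556 and 716 CPM in knockout epithelium, against 504, 608 and 672 CPM in control epithelium, and its groups overlapped (adjusted p = 0.715).

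Ion carriers moved in both directions too. Slc12a2, the basolateral sodium, potassium and chloride cotransporter, had 744, 958 and 852 CPM in knockout epithelium, against 533, 609 and 651 CPM in control epithelium (log2 difference 0.51, SE 0.12, adjusted p = 0.00955). That call was lost in 1 of the 6 fits that left out 1 library (adjusted p = 0.0537). Of the 5 SLC12 members it was the 1 that rose, and Slc12a8 (-0.47) and Slc12a9 (-0.44) fell. The shares of all genes were 19.8% higher and 19.9% lower. The call of Slc12a9 was lost in 4 of the 6 fits and with total reads as the scaling. The sodium-bicarbonate cotransporter Slc4a7 rose to 251, 274 and 302 CPM in knockout epithelium, against 193, 141 and 159.5 CPM in control epithelium (log2 difference 0.75, SE 0.13, adjusted p = 0.00176). The chloride-bicarbonate exchanger Slc4a2 fell to 154, 122 and 135 CPM in knockout epithelium, against 233, 273 and 242 CPM in control epithelium (log2 difference -0.86, SE 0.11, adjusted p = 0.00053), and it shares 13.7% of its exon bases with Fastk on the other strand. Of the 8 symbols of the SLC9 family, 3 fell and none rose, against 19.9% lower and 19.8% higher over all genes. The falls were those of the sodium-proton exchanger Slc9a2 (log2 difference -0.45, SE 0.13, adjusted p = 0.0187), whose call was lost in 3 of the 6 fits that left out 1 library (highest adjusted p = 0.0921), and the scaffold genes Slc9a3r1 (-0.75) and Slc9a3r2 (-0.79). Slc9a3, the exchanger that both scaffolds bind, had 39.7, 26.6 and 52.5 CPM in knockout epithelium, against 42.8, 70.2 and 65.2 CPM in control epithelium (adjusted p = 0.074). The sodium-phosphate cotransporter Slc20a1 fell to 81.1, 81.6 and 119 CPM in knockout epithelium, against 255, 166 and 168 CPM in control epithelium (log2 difference -1.05, SE 0.19, adjusted p = 0.00244).

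Nucleoside and vitamin carriers differed as well. The concentrative nucleoside transporter Slc28a3 had 58.0, 69.9 and 42.5 CPM in knockout epithelium, against 26.3, 25.9 and 25.8 CPM in control epithelium (log2 difference 1.07, SE 0.16, adjusted p = 0.000999). The 3 control values were almost equal. The proton-coupled folate transporter Slc46a1 rose (log2 difference 0.72, SE 0.15, adjusted p = 0.00501), while the reduced folate carrier Slc19a1 fell to 11.9, 8.80 and 10.8 CPM in knockout epithelium, against 17.6, 16.4 and 14.8 CPM in control epithelium (log2 difference -0.59, SE 0.14, adjusted p = 0.00969). The glucose carriers Slc2a1 and Slc5a1 had adjusted p of 0.765 and 0.477, with 206, 224 and 202 CPM in knockout epithelium, against 203, 236 and 236 CPM in control epithelium, for Slc5a1.

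**Figure D1:**
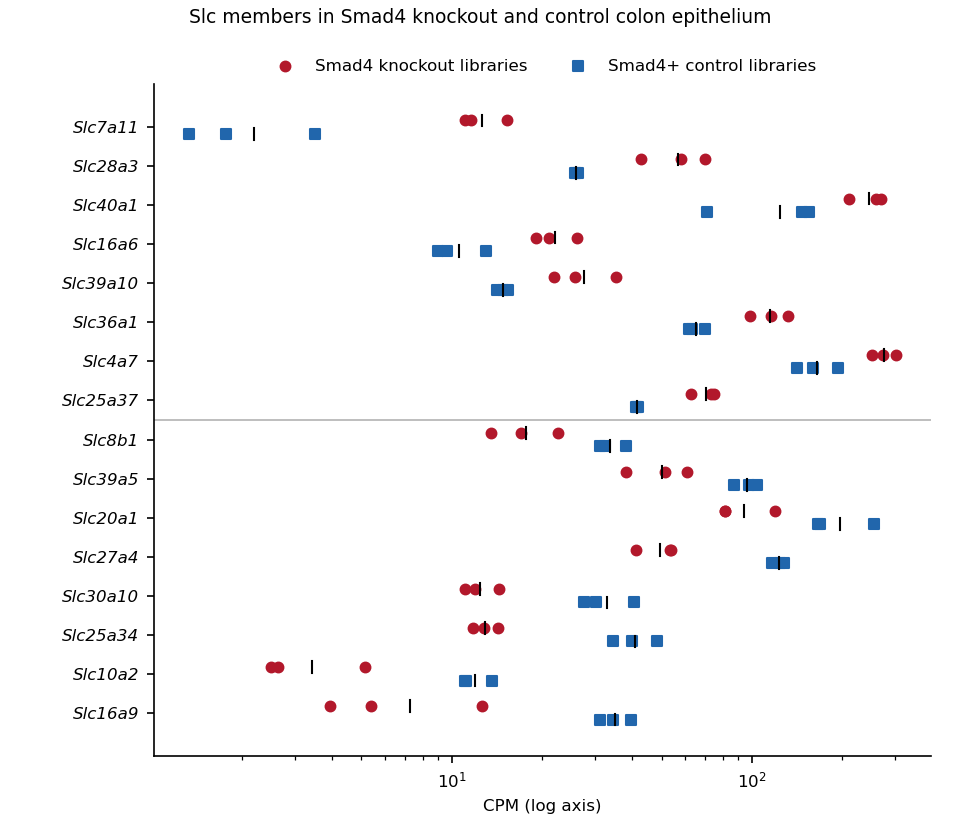
CPM (log axis) of the 8 members with the largest rise and the 8 with the largest fall in each colon epithelium library, knockout above control, with points for the 3 libraries of each group and a line at their mean. Slc7a11 lies between 11.1 and 15.3 CPM in the 3 knockout libraries, all above the controls, and Slc16a9 lies between 3.92 and 12.6 CPM in them, all below the controls.

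Markers of cell types moved in the same libraries. Of 12 goblet cell markers 7 fell and 1 rose, with summed levels of 9411 to 12178 CPM in knockout epithelium, against 14328 to 15328 CPM in control epithelium, and of 11 absorptive cell markers 5 fell and 1 rose (14758 to 19864 CPM, against 20512 to 21581 CPM). Enteroendocrine markers fell for 6 of 10 (186 to 201 CPM in knockout epithelium, against 324 to 367 CPM in control epithelium), and tuft cell markers for 3 of 6. Stem and transit cell markers rose for 5 of 9 and fell for 2, with sums of 1166 to 1282 CPM in knockout epithelium, against 864 to 1107 CPM in control epithelium. Over all genes 19.8% were higher and 19.9% lower. The part of these marker differences in the SLC results was not tested.

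Treatment of colonoids with TGFB1 and BMP2 tested the response of cultured colon epithelium to the ligands upstream of Smad4. Of 184 members, 38 rose and 53 fell, together 49.5%, against 56.7% of 11633 genes tested, of which 28% were higher and 28.7% lower. With TNF present in both groups, 37 of 181 rose and 59 fell, 53.0%, against 54.1% of 11595 genes, of which 26.4% were higher and 27.7% lower. Scaling to total reads, not the authors' effective library sizes, lowered the median of all genes by 0.26 (log2) without TNF and 0.24 with it. Members then had 26 rises and 82 falls without TNF and 24 and 78 with it, so small rises depend on the scaling. The shares of all genes under this scaling are not given here, so the lean to falls is not read as one of carriers. The line served as a replicate number in the labels; with it as a block 109 and 116 members were called, against 62.1% and 60.9% of genes. Of members tested in both tables, 80 were called in the same direction with and without TNF and 0 in opposite directions; they are 84.2% of the calls with TNF and 88.9% of the calls without it, against 91.2% and 87.1% over all genes. These tables share no libraries, but they share the 3 lines.

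The line L46 responded least. Among the 91 members called without TNF, the difference of line L46 was the smallest of the 3 lines for 82, with a median size of 0.64 (log2), against 1.03 in L42 and 1.13 in L43. Among the 96 called with TNF it was the smallest for 87. The labels give the L46 libraries the code L48 and those of L42 and L43 the code L45, without saying what it stands for. Without the treated L46 library 111 members were called without TNF (52 higher, 59 lower) and 118 with it (50 and 68). Shares of all genes for these line counts are not given here, so they are not read as a trait of carriers. Outside the members, Epcam had 4084, 4134 and 2574 CPM in treated L42, L43 and L46, against 1445, 1487 and 1437 CPM with vehicle. Cdh1 had 3225, 3595 and 2116 CPM, against 1214, 1165 and 1133 CPM, so both rose least in L46 too. In colonoids given TGFB1 and BMP2, the epithelial markers rose for 8 of 10, with sums of 25558 to 33060 CPM in treated colonoids, against 9529 to 11530 CPM in vehicle colonoids, goblet cell markers fell for 10 of 11 (228 to 303 CPM, against 967 to 1885 CPM), and stem and transit cell markers fell for 6 of 9 and rose for 2. Over all genes 28% were higher and 28.7% lower. The part of these markers in the SLC results was not tested.

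Among called members whose groups do not overlap, the 5 largest rises in colonoids without TNF were those of Slc39a2, Slc46a1, Slc6a8, Slc4a11 and Slc23a2. Slc39a2, a zinc importer on chromosome 14 (bases 51892889 to 51896745, + strand, GRCm38), had 19.1, 50.3 and 10.1 CPM in the lines L42, L43 and L46 with TGFB1 and BMP2, against 0.547, 0.558 and 0.567 CPM with vehicle (log2 difference 3.85, SE 0.51, adjusted p = 0.00244). It was near the bottom of detection in every vehicle line and met the rule only through the treated group. Slc46a1, the proton-coupled folate transporter, had 84.5, 161 and 47.6 CPM with TGFB1 and BMP2, against 10.99, 11.7 and 9.71 CPM with vehicle (log2 difference 2.90, SE 0.40, adjusted p = 0.00269). Vehicle values were alike in the 3 lines, and the treated ones followed the order L43, L42, L46. Slc6a8, the creatine carrier, had 344, 466 and 203 CPM with TGFB1 and BMP2, against 58.8, 66.5 and 66.9 CPM with vehicle (log2 difference 2.30, SE 0.28, adjusted p = 0.00209). Slc4a11, a borate transporter homologue that conducts protons and ammonia, had 260.0, 201 and 264 CPM with TGFB1 and BMP2, against 49.9, 30.4 and 76.6 CPM with vehicle (log2 difference 2.27, SE 0.32, adjusted p = 0.00271), and here L46 was as high as L42. The ascorbate carrier Slc23a2 had 443, 473 and 260.4 CPM with TGFB1 and BMP2, against 91.4, 64.1 and 89.1 CPM with vehicle (log2 difference 2.22, SE 0.25, adjusted p = 0.00184). With TNF in both groups the same 5 carriers rose, by 3.01 for Slc39a2, 2.65 for Slc46a1, 2.38 for Slc6a8, 2.09 for Slc4a11 and 1.79 for Slc23a2 on the log2 scale.

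The genes of a glucose importer and a lactate exporter rose, while those of most SLC5 carriers fell. The facilitative glucose carrier Slc2a1 had 652, 672 and 457 CPM with TGFB1 and BMP2, against 243, 197 and 289 CPM with vehicle (log2 difference 1.28, SE 0.20, adjusted p = 0.00357). The lactate exporter Slc16a3 had 379, 369 and 363 CPM with TGFB1 and BMP2, against 149, 109 and 203 CPM with vehicle (log2 difference 1.31, SE 0.21, adjusted p = 0.00398). Treated values were nearly equal in the 3 lines, and the vehicle level was highest in L46. Glycolysis and hypoxia response genes, a list of other genes, rose for 7 of 22 and fell for 1 without TNF, and rose for 4 and fell for 2 with it, against 28% and 26.4% of all genes higher, so the counts of rises are near the background or below it. Falls were below the 28.7% and 27.7% of all genes lower. Without TNF the list had a median log2 difference of 0.37, against -0.02 over all genes. Its summed levels were 26467 to 29596 CPM, against 18820.5 to 23751 CPM with vehicle. The median and the sums depend on the scaling, since scaling to total reads lowered the median of all genes by 0.26 (log2) here. With TNF in both groups the sums overlapped (20497 to 23853 CPM, against 18163 to 21690.5 CPM). The sodium-glucose cotransporter Slc5a1 fell to 10.4, 11.2 and 13.7 CPM with TGFB1 and BMP2, against 101, 119 and 70.8 CPM with vehicle (log2 difference -2.91, SE 0.21, adjusted p = 0.00109). With TNF it had 7.00, 7.17 and 6.75 CPM with TGFB1 and BMP2, against 95.9, 129 and 69.5 CPM with TNF alone (log2 difference -3.59, SE 0.22, adjusted p = 0.00134). All 3 lines fell in both tables. In the SLC5 family, which couples uptake to sodium, 4 of 5 members fell without TNF and 4 of 5 with it. The shares of all genes lower were 28.7% and 27.7%. Among the falls was Slc5a6, the carrier of biotin and pantothenate, with 2.21, 2.53 and 3.85 CPM with TGFB1 and BMP2, against 14.9, 22.2 and 14.01 CPM with vehicle (log2 difference -2.22, SE 0.24, adjusted p = 0.00154). Its mean was at least 5 CPM with vehicle only, so it met the rule through that group. The 1 SLC5 member that rose was the inositol carrier Slc5a3 (0.87 without TNF).

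Amino acid carriers moved in both directions. The leucine carrier Slc7a5 had 24.4, 17.5 and 55.6 CPM with TGFB1 and BMP2, against 116, 116 and 125 CPM with vehicle (log2 difference -2.003, SE 0.38, adjusted p = 0.00622), and the glutamine carrier Slc1a5 had 57.4, 39.1 and 120.2 CPM with TGFB1 and BMP2, against 253, 204 and 243 CPM with vehicle (log2 difference -1.83, SE 0.38, adjusted p = 0.00784). In both, L46 kept the highest treated level. Slc1a1, a glutamate and cysteine carrier of the brush border, fell to 0.638, 0.939 and 5.17 CPM with TGFB1 and BMP2, against 18.4, 35.2 and 25.1 CPM with vehicle (log2 difference -3.29, SE 0.52, adjusted p = 0.0037). Slc3a2, the heavy chain that Slc7a5 and Slc7a11 need, had 176, 172 and 171 CPM with TGFB1 and BMP2, against 164, 152 and 178 CPM with vehicle (adjusted p = 0.515). Slc7a11 rose to 189, 132 and 154 CPM with TGFB1 and BMP2, against 92.5, 75.8 and 113 CPM with vehicle (log2 difference 0.75, SE 0.18, adjusted p = 0.0138). With TNF its difference was 0.63 and missed the threshold (adjusted p = 0.0742), which it passed with the line block (adjusted p = 0.032). Scaled to total reads, the rise without TNF was 0.48 and missed the threshold. The taurine carrier Slc6a6 rose without TNF (log2 difference 0.87, SE 0.14, adjusted p = 0.00375) and with it (log2 difference 0.84, SE 0.13, adjusted p = 0.00368). Slc7a8, a carrier of neutral amino acids, had 10.8, 87.5 and 20.6 CPM in L42, L43 and L46 with TGFB1 and BMP2, against 1.76, 12.04 and 3.47 CPM with vehicle (log2 difference 2.38, SE 0.85, adjusted p = 0.0489). The lines start from different levels and the groups overlap, with a rise in each line, and the call was lost in 4 of the 6 fits that left out 1 library (highest adjusted p = 0.139) and with edgeR, a pseudocount of 5 or total reads as the scaling. With TNF its difference was 2.06, with an adjusted p of 0.0982 without the line block and 0.00858 with it. Slc7a7, which carries cationic and neutral amino acids, rose to 125, 133 and 112 CPM with TGFB1 and BMP2, against 70.4, 60.2 and 68.1 CPM with vehicle (log2 difference 0.89, SE 0.10, adjusted p = 0.00186). Of 22 amino acid response genes of the ATF4 pathway, a list without Slc genes, 12 fell and 2 rose without TNF, and 11 fell and 2 rose with it, against 28.7% lower and 28% higher over all genes without TNF.

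Mitochondrial carriers fell for 14 of 33 SLC25 members and rose for 4 without TNF, and fell for 16 and rose for 5 with it. Over all genes 28.7% were lower and 28% higher without TNF, and 27.7% and 26.4% with it. The ADP/ATP carrier Slc25a5 had 609.6, 651 and 722 CPM with TGFB1 and BMP2, against 972, 1236 and 1036 CPM with vehicle (log2 difference -0.71, SE 0.13, adjusted p = 0.00589). Slc25a23, a calcium-dependent ATP-magnesium and phosphate carrier, had 2.68, 2.13 and 7.82 CPM with TGFB1 and BMP2, against 19.7, 19.1 and 20.4 CPM with vehicle (log2 difference -2.15, SE 0.38, adjusted p = 0.00491). Its relative Slc25a24 went the other way, at 557, 590.3 and 393 CPM with TGFB1 and BMP2, against 178, 178 and 172 CPM with vehicle (log2 difference 1.52, SE 0.16, adjusted p = 0.00151). The glutamate carrier Slc25a22 rose to 101, 101 and 50.4 CPM with TGFB1 and BMP2, against 19.7, 19.4 and 21.2 CPM with vehicle (log2 difference 1.95, SE 0.27, adjusted p = 0.00268). Slc25a35, of unknown substrate, had 2.48, 1.19 and 6.59 CPM with TGFB1 and BMP2, against 31.5, 25.8 and 26.1 CPM with vehicle (log2 difference -2.89, SE 0.43, adjusted p = 0.00308), but 31.3% of its exon bases are shared with Rangrf on the other strand. The SLC25 family took 19.8% to 21.1% of the summed CPM of members with TGFB1 and BMP2, against 21.9% to 22.9% with vehicle.

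Ion, metal, nucleoside and bile acid carriers of colonoids included further large falls. Slc12a8, a member of the cation-chloride family, had 1.15, 0.709 and 1.74 CPM with TGFB1 and BMP2, against 41.5, 35.2 and 23.5 CPM with vehicle (log2 difference -3.96, SE 0.26, adjusted p = 0.000974), the largest fall among members there. The chloride-loading cotransporter Slc12a2 fell to 530.1, 520.3 and 825 CPM with TGFB1 and BMP2, against 1183, 1115 and 1066 CPM with vehicle (log2 difference -0.87, SE 0.19, adjusted p = 0.00967). L46 again fell least. The iron importer Slc11a2 fell to 82.6, 297 and 222 CPM with TGFB1 and BMP2, against 375, 1107 and 573 CPM with vehicle (log2 difference -1.81, SE 0.56, adjusted p = 0.0307), where the lines differ widely and the line block gives an adjusted p of 0.00542. Without the block its call was lost in 3 of the 6 fits that left out 1 library (highest adjusted p = 0.094). The zinc importers Slc39a5 (log2 difference -2.27, SE 0.23, adjusted p = 0.00144) and Slc39a14 (log2 difference -1.04, SE 0.15, adjusted p = 0.00286) fell. The equilibrative nucleoside transporter Slc29a1 had 15.3, 10.2 and 36.3 CPM with TGFB1 and BMP2, against 75.1, 71.3 and 72.6 CPM with vehicle (log2 difference -1.97, SE 0.41, adjusted p = 0.00793), and the reduced folate carrier Slc19a1 fell as well (log2 difference -1.54, SE 0.31, adjusted p = 0.00761), opposite to the folate transporter Slc46a1. Slc10a2 had 3.22, 3.55 and 1.80 CPM with TGFB1 and BMP2, against 13.5, 12.8 and 3.90 CPM with vehicle (log2 difference -1.40, SE 0.45, adjusted p = 0.0342), a call lost in 5 of the 6 fits that left out 1 library (highest adjusted p = 0.11). Of the 184 members, 20 had a mean under 5 CPM in one group and 15 of these were called, Slc39a2, Slc12a8, Slc1a1, Slc25a35, Slc39a5, Slc5a6, Slc25a23 and Slc10a2 among them. Among the other 164, 37 rose and 39 fell. With TNF in both groups 19 of the 181 had a mean under 5 CPM in one group, 14 of them called, and among the other 162, 36 rose and 46 fell.

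**Figure D2:**
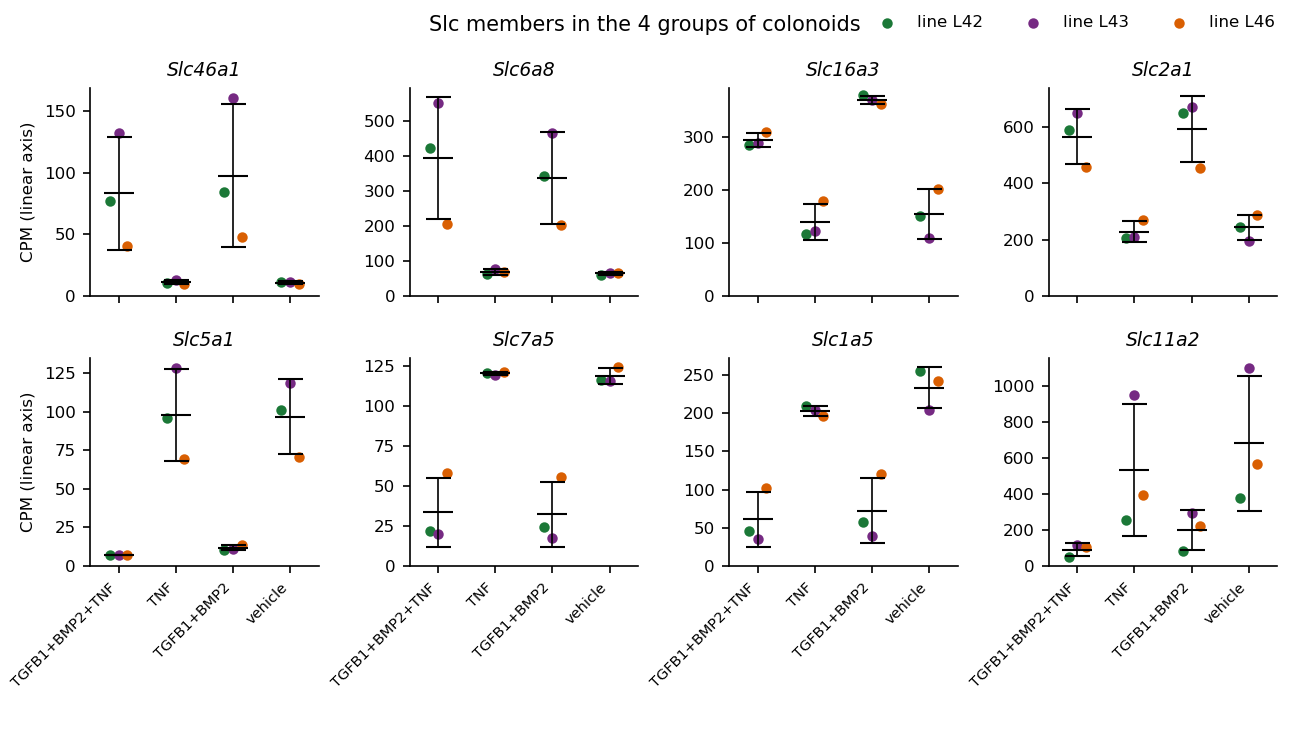
CPM (linear axis, reads scaled together over 12 libraries) of 8 members in colonoids by treatment, with 1 point per line, L42, L43 and L46, and the mean with its SD. Slc16a3 lies between 362 and 378 CPM with TGFB1 and BMP2, above every vehicle line, and Slc5a1 lies between 10.4 and 13.7 CPM with them, below every vehicle line.

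In the cells labelled colonocytes, TGFb and BMP2 raised 35 and lowered 23 of 155 members, together 37.4%, against 30.2% of 11620 genes tested (15.9% higher, 14.3% lower). Added to TNFa they raised 38 and lowered 24 of 152, together 40.8%, against 31.9% of 11567 genes (16.4% higher, 15.6% lower). Scaled to total reads, the splits were 21 higher and 39 lower, and 26 and 38. That scaling lowered the median of all genes by 0.08 (log2) both without and with TNFa. The shares of all genes under it are not given here, so these splits are not read as a lean of carriers. Of the 155 members, 4 had a mean under 5 CPM in one group, and 2 of these were called. Among the other 151, 35 rose and 21 fell. With TNFa in both groups 4 of the 152 had a mean under 5 CPM in one group, 1 of them called. Among the other 148, 38 rose and 23 fell. Of members in both tables, 47 were called in the same direction and 0 in opposite directions, 75.8% of the calls with TNFa and 81.0% of those without, against 74.4% and 78.4% over all genes, so the shares of members are near the background.

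The creatine carrier Slc6a8 had 135, 125 and 124 CPM with TGFb and BMP2, against 59.0, 57.5 and 62.4 CPM in control cells (log2 difference 1.09, SE 0.056, adjusted p = 1.15e-08), the largest rise. The lactate exporter Slc16a3 had 61.4, 57.3 and 51.6 CPM with TGFb and BMP2, against 31.7, 25.8 and 27.0 CPM in control cells (log2 difference 0.99, SE 0.085, adjusted p = 1.24e-06). Both groups were tight and well apart. The cationic amino acid carrier Slc7a2, which brings arginine into cells, had 23.1, 24.9 and 19.8 CPM with TGFb and BMP2, against 10.9, 12.2 and 13.9 CPM in control cells (log2 difference 0.82, SE 0.10, adjusted p = 4.78e-05). The taurine carrier Slc6a6, at 804, 780.5 and 753 CPM with TGFb and BMP2, against 488, 467 and 542 CPM in control cells (log2 difference 0.64, SE 0.056, adjusted p = 1.32e-06), was the highest member by mean CPM in that table. Rises were also called for the sodium-phosphate cotransporter Slc20a1 (0.66), the magnesium transporter Slc41a2 (0.64) and the sodium-bicarbonate cotransporter Slc4a7 (0.60), each kept in every fit that left out 1 library. Slc7a5, its partner Slc3a2 and Slc2a1 missed the threshold, with 79.1, 73.3 and 76.7 CPM with TGFb and BMP2, against 74.8, 71.6 and 70.0 CPM in control cells, for Slc2a1 (adjusted p = 0.299).

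Metal carriers moved in both directions here too. In the SLC39 family 5 of 10 rose and 2 fell, both without and with TNFa. The shares of all genes were 15.9% higher and 14.3% lower without TNFa, and 16.4% and 15.6% with it. The zinc importer Slc39a10 fell to 72.8, 70.6 and 70.4 CPM with TGFb and BMP2, against 135, 141 and 133 CPM in control cells (log2 difference -0.92, SE 0.050, adjusted p = 1.72e-08). Slc39a13, an intracellular zinc transporter, rose to 138, 128 and 138 CPM with TGFb and BMP2, against 84.6, 86.4 and 83.9 CPM in control cells (log2 difference 0.66, SE 0.051, adjusted p = 4.94e-07). The spread within each group was a small part of the difference for both. The iron exporter Slc40a1 fell to 3.30, 4.80 and 4.50 CPM with TGFb and BMP2, against 7.68, 7.5997 and 9.37 CPM in control cells (log2 difference -0.83, SE 0.13, adjusted p = 0.000292). Its mean was at least 5 CPM in control cells only, so it met the rule through that group. The heme transporter Slc48a1 (log2 difference -0.60, SE 0.052, adjusted p = 1.38e-06) and the copper transporter Slc31a2 (log2 difference -0.61, SE 0.079, adjusted p = 5.13e-05) fell. Slc39a8, an importer of zinc and manganese, had 7.96, 7.78 and 6.07 CPM with TGFb and BMP2, against 13.1, 12.2 and 10.8 CPM in control cells (log2 difference -0.66, SE 0.11, adjusted p = 0.000636). Of the SLC25 family, 2 of 31 rose and 5 fell, against 15.9% higher and 14.3% lower over all genes, the mitochondrial coenzyme A carrier Slc25a42 (-0.51) and Slc25a23 (-0.70) among the falls. The scaffold gene Slc9a3r1 had 264, 238 and 216 CPM with TGFb and BMP2, against 463, 483 and 337 CPM in control cells (log2 difference -0.82, SE 0.11, adjusted p = 7.04e-05).

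**Figure D3:**
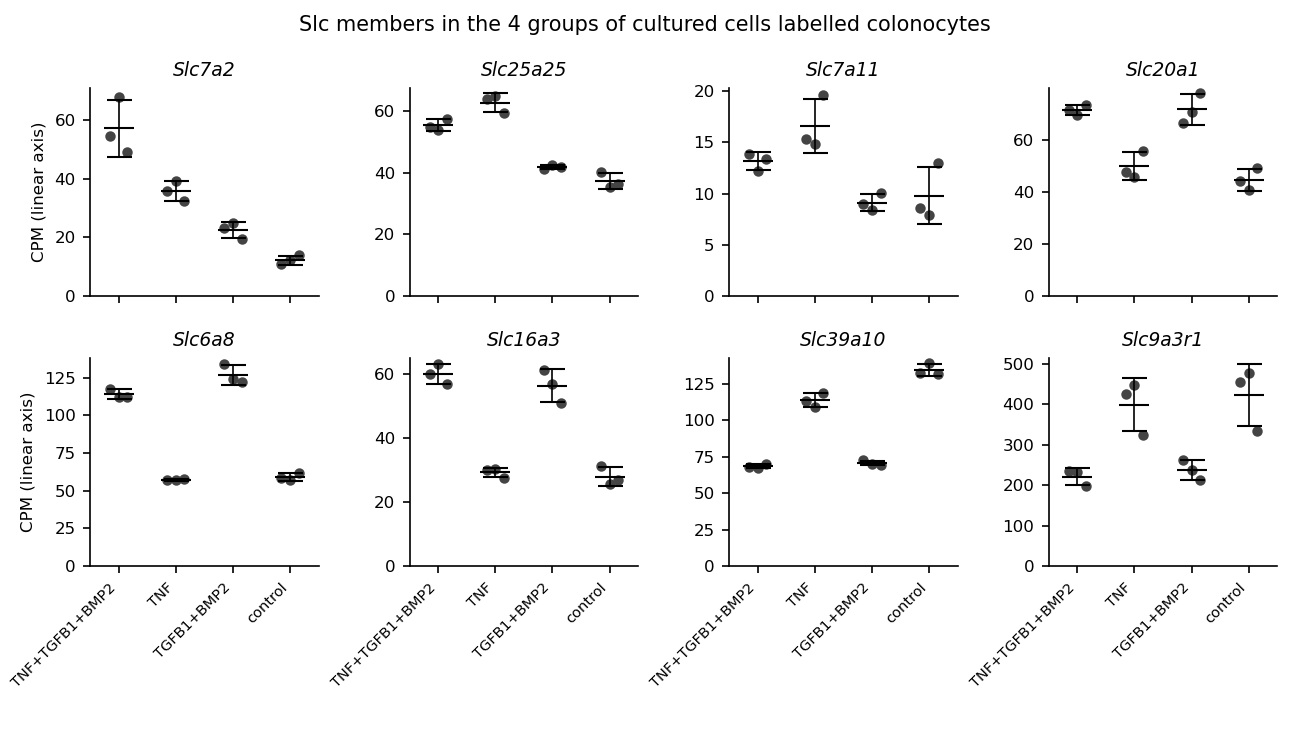
CPM (linear axis, reads scaled together over 12 libraries) of 8 members in the cells labelled colonocytes by treatment, with 1 point per library and the mean with its SD. Slc7a2 lies between 48.9 and 68.0 CPM with all 3 factors, above all libraries with TNFa alone, and control cells lie lowest, at 10.8 to 13.8 CPM.

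Carriers common to both culture systems were few. Of 140 members tested in all 4 TGFB1 and BMP2 comparisons, 4 rose in each (2.86%, against 6.23% of all 10229 genes) and 5 fell in each (3.57%, against 2.47%). The rises were those of Slc16a3, Slc6a8, Slc6a6 and the Golgi zinc transporter Slc30a7, and the falls those of Slc25a23, Slc25a42, Slc39a8, the mitochondrial aspartate-glutamate carrier Slc25a12 and Slc35f2. Slc6a8 rose by 2.30 in colonoids and by 1.09 in the cells labelled colonocytes (log2), and Slc25a23 fell by 2.15 and by 0.70. The call of Slc30a7 in colonoids with TNF was lost in 5 of 6 fits that left out 1 library, that of Slc25a12 there in 3, and that of Slc35f2 in the cells without TNFa in 3. Scaled to total reads, Slc30a7 was no longer called in colonoids (0.12 without TNF and 0.09 with it). Without TNF, 14 members were called in the same direction in both systems and 11 in opposite directions, which is 20.3% and 15.9% of the 69 colonoid calls and 26.4% and 20.8% of the 53 calls in the cells labelled colonocytes. Over all genes the counts were 1200 and 593, which is 20.5% and 10.1% of the colonoid calls and 40.3% and 19.9% of the calls in the cells labelled colonocytes. With TNF in both groups the member counts were 14 and 14, and those of all genes 1252 and 599.

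The difference of the 2 responses was tested on reads recovered from both sets of tables. It was called for 76 of 143 members (53.1%), 30 higher and 46 lower in colonoids, against 54.8% of 10359 genes, of which 26.6% were higher and 28.3% lower. Scaled to total reads the split was 20 higher and 59 lower, without the shares of all genes under that scaling, so it is not read as a lean of carriers. The 11 members called in opposite directions were all among them. They were picked by calls on the same libraries, so this is no separate evidence of opposite responses. The nucleoside transporter Slc29a1 fell in colonoids and rose in the cells labelled colonocytes, to 150.1, 150.1 and 155 CPM with TGFb and BMP2, against 113, 106 and 115 CPM in control cells, a difference of -2.43 (SE 0.45, adjusted p = 0.00141). The copper transporter Slc31a2 rose in colonoids, to 21.6, 21.8 and 18.3 CPM with TGFB1 and BMP2, against 10.8, 11.5 and 11.8 CPM with vehicle (difference 1.41, SE 0.13, adjusted p = 3.84e-05). The zinc importer Slc39a14 fell in colonoids and rose in the cells labelled colonocytes (difference -1.43, SE 0.17, adjusted p = 0.000168). System, ligand dose and time, read length and experiment cannot be told apart in these differences.

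**Figure D4:**
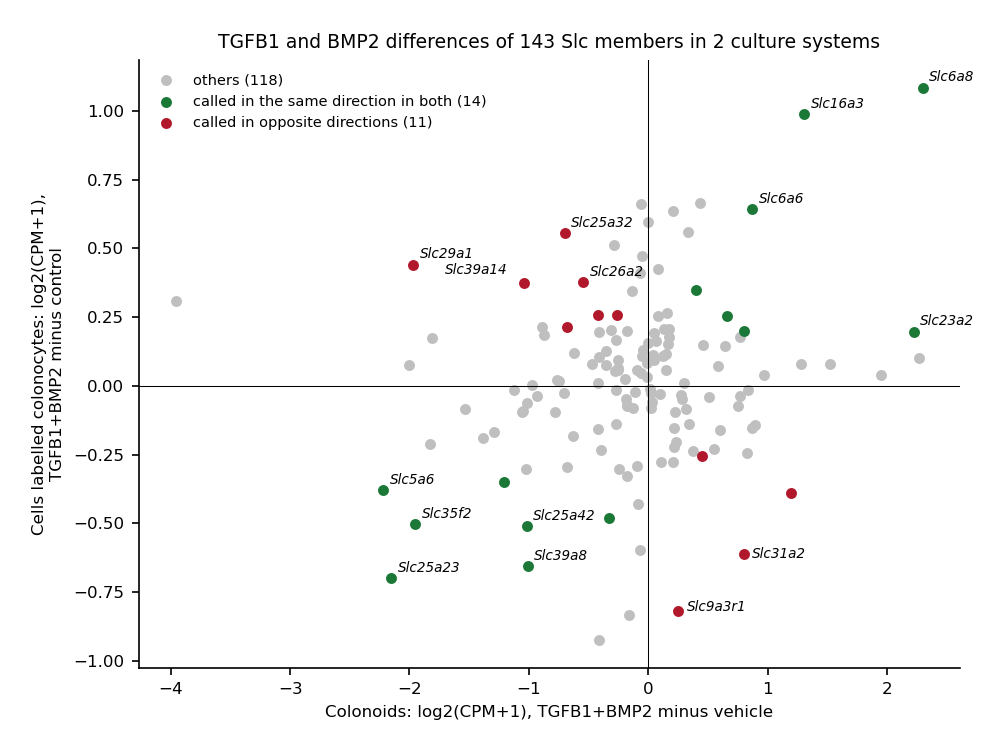
Log2 difference of each member with TGFB1 and BMP2, colonoids on the horizontal axis and cells labelled colonocytes on the vertical axis, both as log2(CPM + 1) of treated minus untreated groups without TNF, with 1 point per member. Slc6a8 lies furthest toward a rise in both, and Slc29a1 lies at 0.44 in the cells labelled colonocytes and at -1.97 in colonoids.

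TNF was tested in both culture systems. In the cells labelled colonocytes TNFa raised 9 and lowered 4 of 155 members (8.39%, against 6.28% of 11586 genes, 4.61% higher and 1.67% lower). Deviations from group means correlated within replicate numbers in these libraries (r between 0.27 and 0.522). Numbers 1 and 2 also correlated with each other across the groups (0.22 and 0.173), so pairing by number is not shown for them. With the number as a block 20 rose and 13 fell (21.3%, against 20.3% of genes, 11.5% higher and 8.8% lower). Leaving out 1 library without the block gave 5 calls without TNFa library 1 or without control library 2, 7 without control library 1, 8 without TNFa library 2 and 20 without control library 3. Slc7a2 had 36.8, 40.4 and 33.2 CPM with TNFa, against 11.1, 12.4 and 14.2 CPM in control cells (log2 difference 1.48, SE 0.099, adjusted p = 5.07e-06), and all treated libraries lay far above the controls. Slc25a25, a calcium-dependent ATP-magnesium and phosphate carrier, had 66.0, 67.0 and 61.1 CPM with TNFa, against 41.5, 36.5 and 37.2 CPM in control cells (log2 difference 0.74, SE 0.066, adjusted p = 3.86e-05). The neutral amino acid carrier Slc43a2 rose to 15.1, 16.5 and 11.7 CPM with TNFa, against 8.12, 9.44 and 7.32 CPM in control cells (log2 difference 0.73, SE 0.13, adjusted p = 0.00551), and the iron importer Slc11a2 to 38.8, 34.9 and 37.9 CPM with TNFa, against 29.0, 25.9 and 27.9 CPM in control cells (log2 difference 0.42, SE 0.069, adjusted p = 0.00334). These 4 were called in every fit that left out 1 library. The remaining 9 calls were each lost in 1 to 5 of the 6 fits. They include the rise of Slc7a11, at 15.8, 15.3 and 20.3 CPM with TNFa, against 8.83, 8.10 and 13.4 CPM in control cells (log2 difference 0.73, SE 0.16, adjusted p = 0.022; highest adjusted p 0.109), and the fall of the zinc exporter Slc30a1, at 13.4, 14.996 and 12.4 CPM with TNFa, against 20.7, 19.0 and 17.7 CPM in control cells (log2 difference -0.46, SE 0.091, adjusted p = 0.0109; highest 0.0649).

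Slc7a2 was the member on which both treatments could be read side by side. On reads scaled together over the 12 libraries it averaged 57.1 ± 9.80 CPM with all 3 factors, 35.7 ± 3.497 CPM with TNFa, 22.4 ± 2.63 CPM with TGFb and BMP2 and 12.2 ± 1.55 CPM in control cells (SD, n = 3). Each step in that order was larger than the spread of its groups. Slc16a3 averaged 59.96 ± 3.04 CPM with all 3 factors and 56.4 ± 5.11 CPM with TGFb and BMP2, which overlap, against 29.2 ± 1.48 CPM with TNFa and 27.9 ± 2.98 CPM in control cells, which overlap too. Slc39a10 averaged 68.4 ± 1.24 CPM with all 3, 70.7 ± 1.54 CPM with TGFb and BMP2, 114 ± 4.91 CPM with TNFa and 135 ± 3.90 CPM in control cells. The effect of TGFb and BMP2 did not differ detectably by the presence of TNFa for any of 151 members (limma, 0 calls, against 0.00875% of genes, all lower; 4 at an unadjusted p under 0.05, against 3.11% of genes at that level; edgeR 0 calls).

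In colonoids TNF gave no call among 183 members with limma (0.137% of 11688 genes, 0.12% higher and 0.0171% lower), while 11 had an unadjusted p under 0.05, against 4.40% of genes. edgeR called 0 and DESeq2 called 3, Slc2a6 and Slc9a4 higher and Slc25a23 lower. With the line as a block 4 rose and 17 fell (6.14% of genes, 3.76% higher and 2.39% lower), each moving the same way in all 3 lines. The largest was Slc2a6, a facilitative glucose carrier of lysosomes, with 33.0, 23.2 and 23.7 CPM with TNF, against 16.9, 4.27 and 9.06 CPM with vehicle (log2 difference 1.47, adjusted p = 0.00208 with the block and 0.624 without it). The sodium-proton exchanger Slc9a4 had 73.1, 57.1 and 55.3 CPM with TNF, against 39.6, 37.1 and 24.5 CPM with vehicle (0.87, adjusted p = 0.000642 with the block and 0.356 without it). Every TNF library lay above every vehicle library for these 2. The zinc importer Slc39a5 had 10.7, 26.3 and 10.1 CPM with TNF, against 25.4, 37.2 and 21.1 CPM with vehicle (-0.88, adjusted p = 0.00233 with the block), and the bile acid carrier Slc10a2 had 9.75, 6.65 and 2.52 CPM with TNF, against 15.003, 13.95 and 4.28 CPM with vehicle (-0.71, adjusted p = 0.0033 with the block). Their groups overlap, and the vehicle levels differ between the lines. Others that fell under the block were the iron carriers Slc11a2 (-0.42) and Slc40a1 (-0.32), the amino acid carrier Slc6a14 (-0.34) and Slc25a23 (-0.38). Slc7a2 was not a member in colonoids. The effect of TGFB1 and BMP2 did not differ detectably by the presence of TNF for any of 177 members (limma, 0 calls, 5 at an unadjusted p under 0.05, against 0.736% of genes; edgeR 0 calls).

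Knockout epithelium and ligand-treated cultures share no libraries, so their calls can be set side by side. Of members tested in both, 19 were called in the same direction with Smad4 loss and with TGFB1 and BMP2 in colonoids and 13 in opposite directions, which is 29.7% and 20.3% of the 64 knockout calls and 22.1% and 15.1% of the 86 colonoid calls. Over all genes the counts were 1582 and 924, which is 36.2% and 21.1% of the knockout calls and 25.3% and 14.8% of the colonoid calls. Against the cells labelled colonocytes the member counts were 10 and 7, which is 20% and 14% of 50 knockout calls and 19.6% and 13.7% of 51 calls in those cells. Over all genes they were 626 and 508, which is 15.9% and 12.9% of the knockout calls and 21.9% and 17.8% of the calls in those cells. Slc7a11 rose in the knockout (2.14) and with TGFB1 and BMP2 in colonoids (0.75), and so did the folate transporter Slc46a1 (0.72 and 2.90). The zinc importer Slc39a5 (-0.95 and -2.27), the bile acid carrier Slc10a2 (-1.59 and -1.40) and the reduced folate carrier Slc19a1 (-0.59 and -1.54) fell in both. The chloride-loading cotransporter Slc12a2 rose in the knockout (0.51) and fell in colonoids (-0.87), and the mitochondrial sodium-calcium exchanger Slc8b1 fell in the knockout (-0.92) and rose in colonoids (0.83). The glucose cotransporter Slc5a1, with -2.91 in colonoids, was not called in the knockout.

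**Figure D5:**
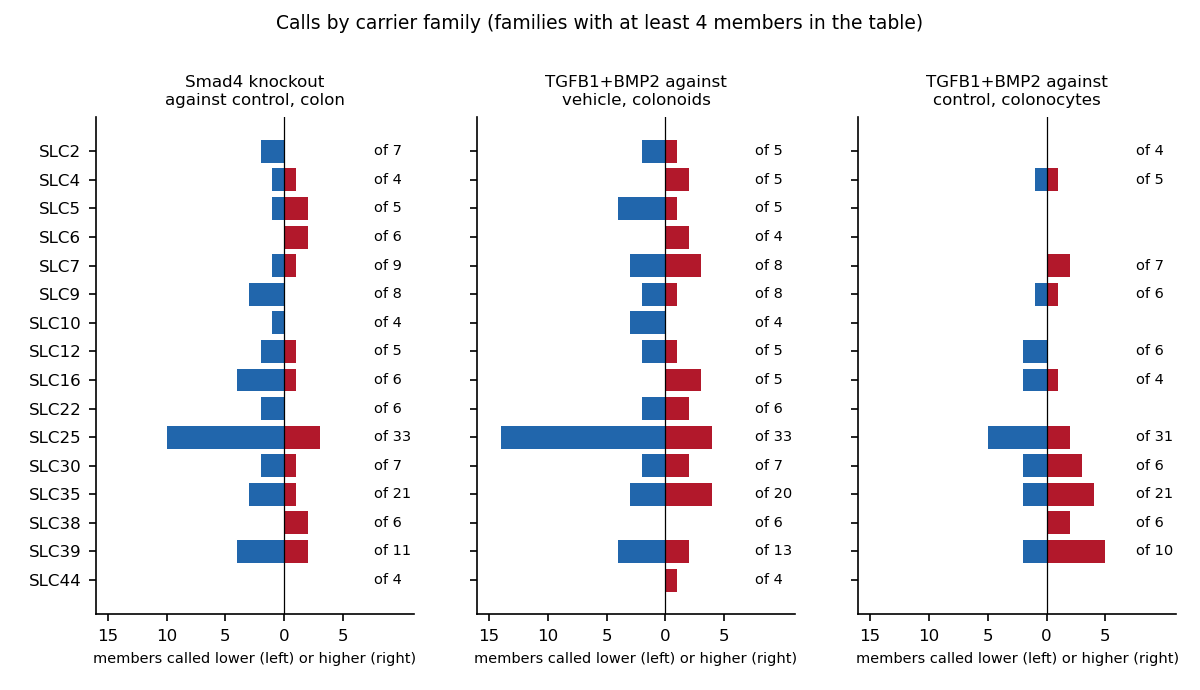
Numbers of members called lower (bars to the left) and higher (bars to the right) per carrier family with at least 4 members, in 3 comparisons, Smad4 knockout epithelium, colonoids with TGFB1 and BMP2 and the cells labelled colonocytes with TGFb and BMP2, each against its control. SLC25 has 10 falls and 3 rises of 33 members in the knockout and 14 falls and 4 rises of 33 in colonoids.

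Transport genes outside the SLC symbols were counted from lists of other families. Over all genes 19.8% were higher and 19.9% lower in knockout epithelium, 28% and 28.7% in colonoids with TGFB1 and BMP2, 26.4% and 27.7% with TNF in both groups, 15.9% and 14.3% in the cells labelled colonocytes with TGFb and BMP2, and 16.4% and 15.6% with TNFa in both groups. Of 25 genes of the sodium pump, proton pumps and channels, 12 fell and 3 rose in knockout epithelium, with summed levels of 9664 to 15163 CPM, against 17681 to 18045 CPM in control epithelium. In colonoids 7 of 24 fell and 2 rose with TGFB1 and BMP2, and 13 of 24 fell and 2 rose where TNF was present in both groups. Of 13 ABC transporters 3 fell and 2 rose in the knockout, and 6 of 10 fell in the cells labelled colonocytes with TGFb and BMP2, against 3 of 10 where TNFa was present in both groups. The mitochondrial pyruvate carrier and carrier chaperone list fell for 3 of 6 in the knockout, and 2 of 4 organic anion carriers of the SLCO family fell there. Zinc and iron handling genes rose for 4 and fell for 4 of 14 in the knockout, rose for 6 and fell for 2 of 14 in colonoids with TGFB1 and BMP2, and fell for 4 of 11 in the cells labelled colonocytes. Amino acid response genes rose for 2 and fell for 5 of 20 in the knockout, and rose for 6 and fell for 5 of 21 in the cells labelled colonocytes with TGFb and BMP2.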

How the data were processed

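RNA was prepared with an RNeasy kit and libraries with the TruSeq Stranded mRNA kit, per the labels' protocols. The submitters' processing notes name the mm10 build with TopHat2 2.1.0, HTSeq 0.5.4p5, edgeR 3.4.2, SAMtools 1.3.1, CASAVA and bcl2fastq 2.16, with no roles, and the strand setting of the counting is not known here. The authors deposited 7 tables of gene signal as CPM, each scaled on its own 6 libraries to effective library sizes, so levels are compared within a table. Columns of log2 fold changes, p-values and FDR made by the authors, per the file headers, were not used. Whole reads were recovered from these values (100% within 0.05 of a whole number) and joined for tests across tables after TMM scaling. CPM are not counts, so the main test was limma 3.58.1 (R 4.3.3) with a mean-variance trend on log2(CPM + 1), for genes with a mean of at least 1 CPM, with Benjamini-Hochberg adjustment over the whole table and a threshold of 0.05. Fold changes on this scale understate those of low genes. Alternatives were pseudocounts of 0.25 and 5, other filters, edgeR 4.0.16 and DESeq2 1.42.0 on recovered reads, total reads as the scaling, a replicate block, and each library left out in turn. Tests were checked on simulated data. Genes named are, per comparison, the up to 8 largest rises and falls among called members whose groups do not overlap, carriers of a list by role, and members called in all 4 TGFB1 and BMP2 comparisons; others that the text names, as calls of a family, in an opposite direction or as lost calls, were chosen after their values were seen. Some results that the naming rule would give are not reported here. The members and lists were chosen with earlier results of these data known. Replicate numbers were tested for pairing by the correlation of deviations from group means. Colonoid lines are shared between groups (r between 0.283 and 0.887). In the cells labelled colonocytes, r within a number was 0.27 to 0.522 with TNFa against control, and 0.163 to 0.411 with TNFa in both groups. Between numbers 1 and 2 it was 0.22 and 0.173, and 0.217 and 0.0822. Number 3 alone stood apart, so pairing of numbers 1 and 2 is not shown. All 213 members matched GENCODE M21 (GRCm38), the source of exon lengths and overlaps.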

Additional observations from a re-analysis of the deposited data

Results flagged for a closer look

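The response to TGFB1 and BMP2 differed between colonoids and the cells labelled colonocytes for 76 members by a test of the difference itself (limma interaction, Benjamini-Hochberg adjustment). Among these, 11 members were called in opposite directions in the 2 systems, of which 10 are described. Each value that follows is the colonoid log2 difference minus that of the cells labelled colonocytes. Slc29a1, a nucleoside transporter, differed by -2.43, the zinc importer Slc39a14 by -1.43, the mitochondrial folate carrier Slc25a32 by -1.27, the sulfate carrier Slc26a2 by -0.93 and the zinc transporter of the secretory pathway Slc30a5 by -0.91. Slc10a7 differed by -0.69 and the zinc transporter Slc39a7 by -0.53, so these 7 fell in colonoids and rose in the cells labelled colonocytes. In the other direction the copper transporter Slc31a2 differed by 1.41, the scaffold gene Slc9a3r1 by 1.06 and the monocarboxylate carrier Slc16a1 by 0.70. Adjusted p (limma interaction) ran from 3.84e-05 for Slc31a2 to 0.00735 for Slc16a1. The members were picked by opposite calls on the same libraries, so these p-values are no separate evidence of opposite responses. The colonoid falls of Slc39a7, at -0.26, Slc10a7, at -0.42, and Slc26a2, at -0.54, and the colonoid rises of Slc9a3r1, at 0.25, and Slc16a1, at 0.45, each lost their call in some fits that left out 1 library. With TNF in both groups Slc39a7 (-0.22), Slc9a3r1 (0.25) and Slc16a1 (-0.17) were not called in colonoids. Slc16a1 was not called in the cells labelled colonocytes there either (-0.08). The other members described were called in opposite directions with TNF too. System, dose, time and read length cannot be told apart in these values.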

How the results depend on the processing

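Of 129 log2 differences named for single members, none changed sign under any alternative and 103 kept their side of the threshold under all of them. The 129 do not cover every difference that the text names. The colonoid rise of Slc9a3r1 without TNF (0.25) was smaller than the 0.26 by which scaling to total reads lowered the median of all genes. Its direction therefore depends on the scaling. The replicate block gave 33 calls for TNFa in the cells labelled colonocytes, against 13 without it, and 21 for TNF in colonoids, against 0, while DESeq2 gave 3 there. It moved no other count by more than 1.5 times. Pairing by number is not shown in colon epithelium (r within a number between -0.00611 and 0.123). Nor is it shown in the cells labelled colonocytes with TGFb and BMP2 (0.0482 to 0.251, and up to 0.232 across numbers). In these 2 comparisons the block gave 82 calls (42.6% of all genes), against 73 without it, and 70 (35.4% of all genes), against 58. Leaving out 1 library gave 5 to 20 calls for TNFa in the cells labelled colonocytes. The other ranges were 53 to 85 for the knockout, 67 to 111 and 69 to 118 for TGFB1 and BMP2 in colonoids without and with TNF, 42 to 66 and 45 to 59 in the cells labelled colonocytes, and 65 to 90 for the difference between systems. The causes of these changes were not tested. Groups of 3 libraries limit precision, and a missed threshold does not show that levels are equal. For 6 members at least 10% of exon bases are shared with another listed gene, and their values are uncertain.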
